A study of Rattus norvegicus with 18 samples.

Results

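A set of 150 genes with lower RNA levels in the diabetic retina was described in lixisenatide-treated diabetic rats. The genes were chosen by their measured values. A gene qualified when its highest FPKM (read density scaled by gene length and library depth) among 6 untreated diabetic retinae lay below its lowest FPKM among 6 healthy retinae and its mean in the healthy retinae was 1 FPKM or more. Of the 32623 genes in the tables, 13910 had such a mean and 330 of these (2.37%) also met the condition of no overlap. The 150 of these with the largest difference of mean log2(FPKM + 0.1) are the members, and they are numbered here by that difference, with rank 1 the largest. Values of untreated diabetic and healthy animals are therefore a description of the choice and carry no test. The treated animals did not enter it.

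Male Wistar rats were 8 weeks old at the start. In the DC + Lixi group (6 animals) diabetes was induced with 35 mg/kg streptozotocin, which destroys the insulin-producing beta cells, and lixisenatide was injected subcutaneously at 150 µg/kg body weight. The DC group (6 animals) received the same dose of streptozotocin and no lixisenatide, and the NC group (6 animals) was age-matched and not diabetic. Both DC and NC are labelled as placebo-treated. All retinae were taken after 12 weeks, and each animal gave 1 library from whole-retina RNA. In such bulk RNA, fewer cells of a type and less RNA per cell cannot be told apart. Libraries held 28311638 to 39131627 counts, and the median member had 738.5 counts in the middle of the 18 libraries.

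The retina converts light into signals in rod and cone photoreceptors, passes them through bipolar, horizontal and amacrine cells to the ganglion cells, and is supported by Müller glia, astrocytes, microglia and a capillary network. Chronic hyperglycaemia affects neurons, glia and vessels of the retina, which are together called the neurovascular unit. Lixisenatide is an agonist of the receptor for glucagon-like peptide-1, a gut hormone that raises insulin secretion. The deposited tables identify genes by Ensembl gene numbers, and neither these files nor the reference table used here pairs the numbers with symbols. No function could therefore be assigned to a member, and the labelled tissue could not be checked against marker genes.

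Most members were expressed at middle levels and were lower in DC by a modest amount. Their mean level in NC ranged from 1.11 to 925.8 FPKM with a median of 12.2 FPKM. By that level, 61 members lay between 1 and 10 FPKM, 83 between 10 and 100 FPKM and 6 above 100 FPKM, which was 1.01%, 1.14% and 0.94% of the expressed genes in each of these bands. The median member was 1.26-fold lower in DC than in NC, on the log2(FPKM + 0.1) scale. A fall of 2-fold or more was seen in 11 members, a fall of 1.5-fold to 2-fold in 14 and a smaller one in 125. The ratio of count to FPKM, which is proportional to gene length, had a median of 0.995 of that of all expressed genes (quartiles 0.653 and 1.61, against 0.634 and 1.56 for all).

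The limit of 150 fell within a dense part of the list. The member of rank 150 averaged 17.7 ± 1.32 FPKM in DC and 20.9 ± 0.862 FPKM in NC (SD, n = 6 each). The gene of rank 151, just outside, averaged 32.0 ± 1.55 FPKM in DC and 37.7 ± 1.90 FPKM in NC. Both were 1.18-fold lower in DC.

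Together the members took up 1.11% ± 0.127 of all counts in DC + Lixi, 0.988% ± 0.0574 in DC and 1.30% ± 0.0371 in NC (SD, n = 6 each). Among DC + Lixi animals it was 1.26% for 401, 1.22% for 419 and 1.19% for 418, but 1.03% for 388, 0.985% for 428 and 0.971% for 403. The first 3 of these lay above every DC animal, of which the highest was 1.06%, and the other 3 lay within the DC range, which began at 0.90%. NC animals lay between 1.25% and 1.35%, so that only animal 401 reached their range. The low values of DC and the high values of NC follow from the choice of members. Members with many counts weigh most in this sum.

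Gene ENSRNOG00000032926, the member of rank 1, had 3.56, 1.73, 1.01, 0.29, 0.21 and 0.197 FPKM in DC + Lixi animals 401, 419, 418, 388, 428 and 403. In DC it had 0.128 to 0.827 FPKM (median 0.149) and in NC 1.22 to 11.6 FPKM (median 1.98). Of the treated animals, 401 and 419 lay within the NC range and 388, 428 and 403 within the DC range. Compared with NC the DC + Lixi animals had a log2 fold change of -1.70 ± 0.66 (standard error, edgeR adjusted p = 0.167), and compared with DC one of 1.84 ± 0.81 (edgeR adjusted p = 0.367). Neither passed the threshold. Without animal 401 the first of these became -2.47 and passed (edgeR adjusted p = 0.0491), without NC animal 433 it was -1.08 (edgeR adjusted p = 0.395), and with missing counts left at 0 it was -0.81 (edgeR adjusted p = 0.606). The value against DC was 1.06 without animal 401 (edgeR adjusted p = 0.716), and 1.15 and 0.54 with limma on log2(FPKM + 0.1) and log2(FPKM + 1).

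Gene ENSRNOG00000003537, of rank 2, was spread in the same way. Its DC + Lixi values were 1.41 FPKM for animal 418, 0.96 for 401, 0.46 for 419, 0.30 for 428, 0.24 for 388 and 0.115 for 403. DC animals had 0.161 to 0.391 FPKM (median 0.206) and NC animals 0.45 to 1.86 FPKM (median 1.44). The log2 fold changes, -1.09 ± 0.45 against NC (edgeR adjusted p = 0.19) and 1.42 ± 0.48 against DC (edgeR adjusted p = 0.282), did not pass the threshold. With RNA integrity as a covariate the value against DC was 0.45 (edgeR adjusted p = 0.918), and with limma on log2(FPKM + 0.1) and log2(FPKM + 1) it was 0.79 and 0.32. Only these 2 members are given by their gene number, as those of the largest difference.

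**Figure D1:**
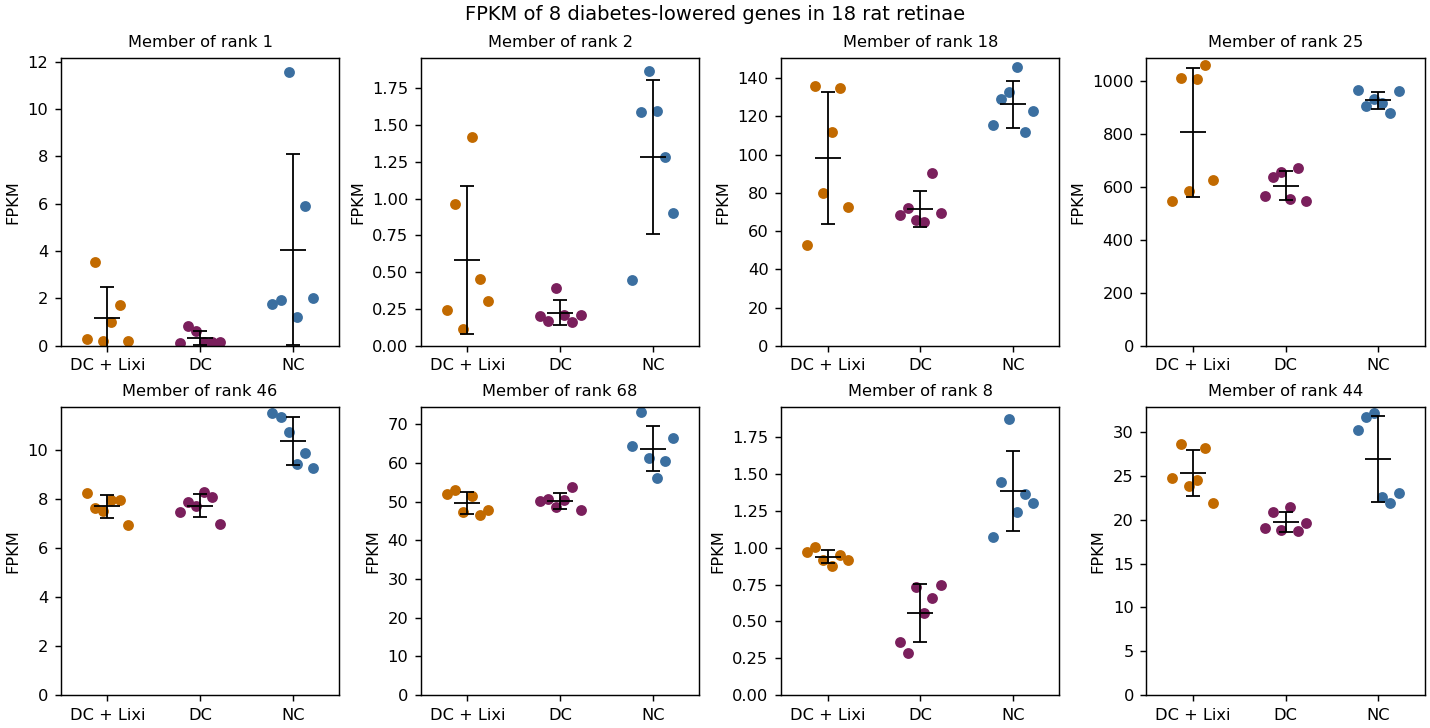
FPKM (y axis, linear from 0) of 8 members in the 6 DC + Lixi, 6 DC and 6 NC retinae, 1 point per animal, with the group mean and SD as bars. In the members of ranks 1, 2, 18 and 25 the DC + Lixi animals spread from the DC level to the NC level, in ranks 46 and 68 all 6 stayed at the DC level, and in ranks 8 and 44 all 6 lay above the DC animals.

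For each member the position of an animal was expressed as the share of the fall, which is 0 at the NC mean and 1 at the DC mean of log2(FPKM + 0.1). The mean over the DC + Lixi animals had a median of 0.674 over the 150 members, with quartiles of 0.525 and 0.831. It lay between the NC and DC means in 135 members, at or beyond the DC mean in 14 and above the NC mean in 1. By the size of the fall, the median share was 0.473 over the 11 members lower by 2-fold or more, 0.569 over the 14 lower by 1.5-fold to 2-fold and 0.70 over the other 125. Over the 180 genes without overlap that ranked below the members it was 0.786. As NC and DC were chosen to lie apart, a separate group can fall between them through the choice alone. The fall that ranked the members is also the denominator of the share, so the order of these medians can come from the choice too, and the shares are given without a test.

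The 6 treated animals differed in this share. The median over the members was 0.41 for animal 401, 0.451 for 419, 0.487 for 418, 0.713 for 388, 0.915 for 428 and 1.05 for 403 (SD over these animals 0.265, n = 6). In DC it ran from 0.785 to 1.22 and in NC from -0.139 to 0.191, so that animals 403 and 428 lay within the DC range, and the others lay between the 2 groups. The score of RNA integrity was 9, 8.9 and 8.7 in animals 401, 419 and 418 and 9, 8.4 and 9.4 in 388, 428 and 403. The RNA concentration was 588.9, 477.3 and 684.6 ng/µl in 401, 419 and 418 and 745.0, 630.9 and 397.0 ng/µl in 388, 428 and 403. In both measures the values of 401, 418 and 419 lay within the range of the other 3 animals. Library depth divided them in the same way as the share. The libraries of 401, 419 and 418 held 39131627, 34751440 and 34407842 counts. Those of 428, 403 and 388 held fewer, with 34294022, 30187129 and 28954158. The part of depth in the difference between these animals was not tested.

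**Figure D2:**
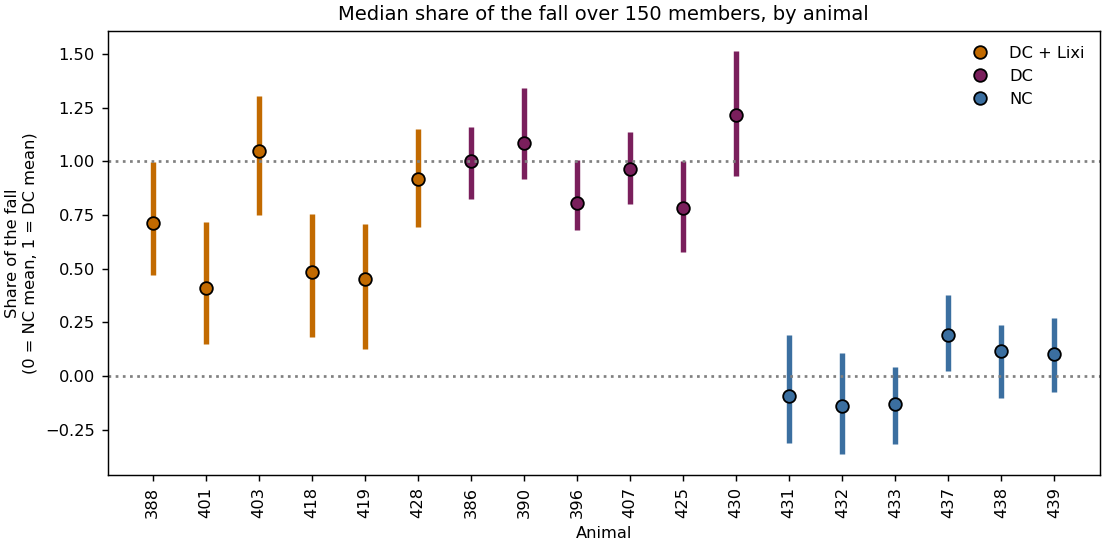
Median share of the fall over the 150 members (points, y axis, 0 at the NC mean and 1 at the DC mean) with the quartiles over members (bars) for each of the 18 animals on the x axis. DC + Lixi animals 401, 418 and 419 stand between 0.41 and 0.487, while 403 and 428 stand at 1.05 and 0.915, among the DC animals.

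Counted against the ranges of the other groups, animal 401 reached the lowest NC value in 71 members, 419 in 68, 418 in 59, 388 in 30, 428 in 17 and 403 in 10. At or below the highest DC value were 54 members in 401, 57 in 419, 62 in 418, 95 in 388, 124 in 428 and 128 in 403. In 105 of the 150 members at least 1 treated animal lay at the NC level and another at the DC level. Even the animals nearest to NC thus had over 50 members at the DC level. Over the 180 genes without overlap that ranked below the members, the animals differed too. In the order 401, 419, 418, 388, 428 and 403, 40.6%, 43.9%, 25%, 25%, 13.3% and 13.3% of these reached the lowest NC value. At or below the highest DC value were 47.2%, 42.8%, 65.6%, 64.4%, 80% and 79.4%. The share of other genes with treated animals at both levels was not counted.

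The same animals tended to be high. In 51 members (34%) the highest 3 of the 6 treated retinae were those of 401, 418 and 419, and this combination was found in 8.15% of the 13910 expressed genes and in 17.8% of the 180 genes ranked below the members. The opposite combination of 388, 403 and 428 came first in 1 member, against 10.4% of the expressed genes. Animal 401 was the highest of the 6 in 50 members and 419 in 50, where they were so in 15.5% and 18.6% of the expressed genes. Animal 403 was the lowest in 59 members and 428 in 46, where they were so in 18.3% and 14.2% of the expressed genes, and 401 was the lowest in 11 members and in 25.7% of the expressed genes. Members come from the same 6 libraries, so these counts describe animals and are not independent observations.

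Rank 25 was the most abundant member. In DC + Lixi its level was 1060 FPKM for animal 419, 1009 for 401, 1008 for 418, 626.1 for 428, 583.5 for 403 and 547.4 for 388, with no value between 626.1 and 1008. DC animals had 546.1 to 670.7 FPKM (median 600.1) and NC animals 879.0 to 963.9 FPKM (median 923.3). Thus 3 of the treated retinae lay above every NC retina and the other 3 within the DC range. For the group as a whole the log2 fold change was -0.17 ± 0.14 against NC (edgeR adjusted p = 0.554) and 0.44 ± 0.14 against DC (edgeR adjusted p = 0.261). The value against NC was -0.08 without animal 388, -0.09 without 403, -0.11 without 428 and -0.26 without 419.

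Rank 18 was similar, with 135.6, 134.9 and 111.95 FPKM in DC + Lixi animals 401, 419 and 418 and 80.1, 72.6 and 52.97 FPKM in 403, 428 and 388. DC animals had 64.8 to 90.3 FPKM (median 68.9) and NC animals 111.6 to 145.8 FPKM (median 126.0). The first 3 treated values fell within the NC range, the next 2 within the DC range, and that of 388 lay below every DC value. The log2 fold change against NC was -0.33 ± 0.18 (edgeR adjusted p = 0.315), and -0.21 without animal 388. In 27 members the treated retinae divided into 3 at or above the lowest NC value and 3 at or below the highest DC value. The share of other genes divided in this way was not counted.

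Rank 3 went another way. It was highest in DC + Lixi animals 403, 428 and 419, with 9.63, 7.07 and 6.87 FPKM, and had 2.89, 1.63 and 1.34 FPKM in 388, 401 and 418. DC animals had 0.909 to 2.72 FPKM (median 2.23). The NC animals themselves were divided, with 10.8 to 17.4 FPKM in 4 animals and 2.90 and 2.89 FPKM in animals 439 and 438, so its place among the members rests on a narrow gap.

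**Figure D3:**
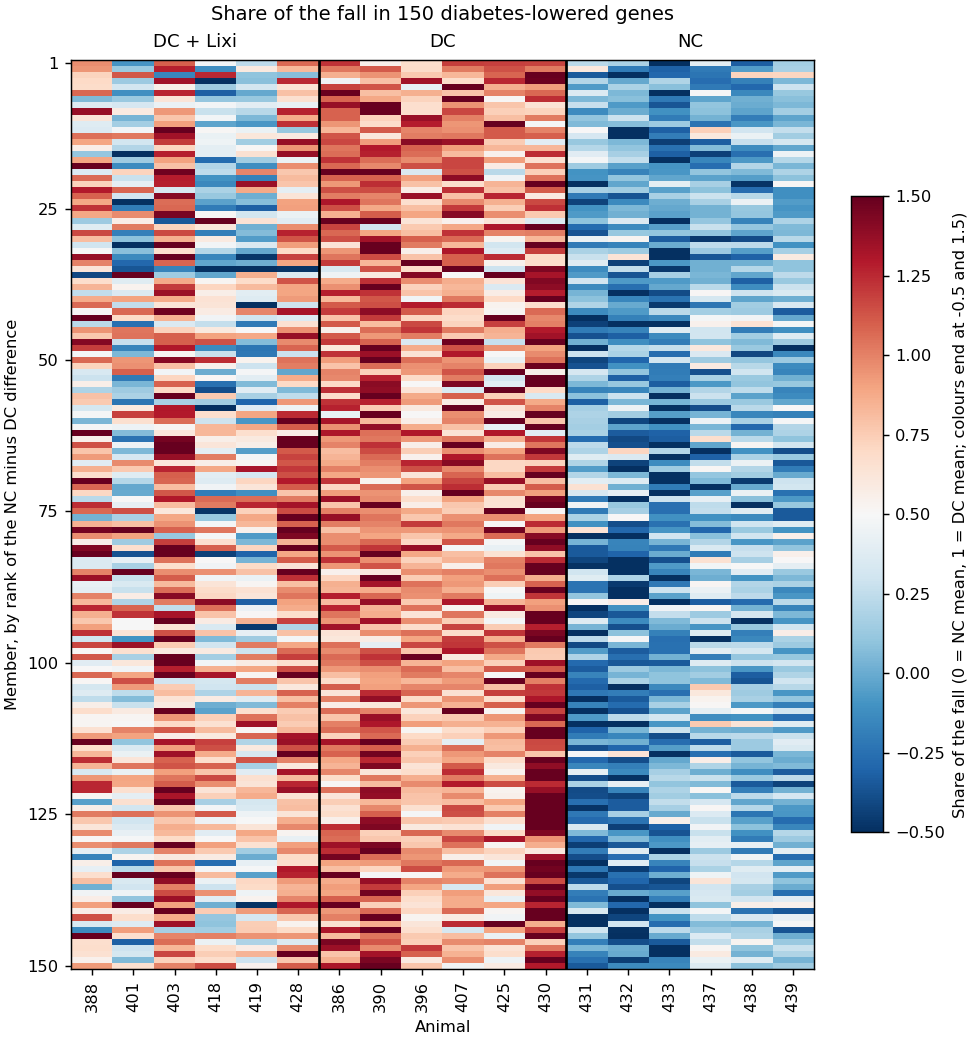
Share of the fall (colour, 0 at the NC mean in blue and 1 at the DC mean in red, colours ending at -0.5 and 1.5) for the 150 members (rows, by rank) in the 18 animals (columns, by group). The DC block is mostly red and the NC block mostly blue through the choice of members, and within DC + Lixi the columns of 403 and 428 (medians 1.05 and 0.915) are redder than those of 401, 418 and 419 (medians 0.41, 0.487 and 0.451).

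Fold changes and p-values came from a single edgeR fit over the 18 libraries, adjusted over all 16524 genes that passed a filter on low counts. Of the members 149 passed it, and the one of rank 5 did not. In DC vs NC, the contrast that chose them, 143 members had an adjusted p under 0.05 and a lower level, where 6.69% of all genes tested did so (DESeq2 148 members, 8.14% of all genes), and this count describes the choice. When RNA integrity entered the fit as a covariate no member was called in this contrast (edgeR, smallest adjusted p 0.0562), and 98 had an unadjusted p under 0.05, where 5.63% of all genes tested did. Every DC library had a higher integrity number (9.2 to 9.5) than every NC library (8.6 to 8.9). The median log2 fold change of the members was -0.32 with the covariate and -0.33 without it, and their median standard error was 0.12 with it and 0.0738 without it.

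In DC + Lixi vs NC, 26 of the 149 members were lower (adjusted p under 0.05, edgeR) and none was higher. This was 17.4% of the members, where 0.587% of all genes tested were called lower. At an unadjusted p under 0.05 there were 93 members, and 8.82% of all genes tested. The NC libraries of this comparison also served to choose the members and had been required to be high. The median log2 fold change was -0.21 over the members and 0.0017 over all genes tested, and 148 members had a negative value. Over members called, the fall ranged from -0.20 to -0.48 on the log2 scale. All but 1 of the members called had ranks beyond 20, so that the members with the largest differences in DC vs NC were mostly not among them. The count depended on single animals. The share of all genes tested that was called lower is given in brackets. The count was 2 without DC + Lixi animal 428 (0.0421%), 3 without 388 (0.0722%) and 3 without 403 (0.0541%). Without NC animals it was 3 for 432 (0.0481%), 4 for 438 (0.0481%), 5 for 431 (0.132%), 5 for 439 (0.0722%), 9 for 433 (0.162%) and 16 for 437 (0.457%). Without DC animals it was 11 for 386 (0.253%) and 16 for 407 (0.391%). It was higher without DC + Lixi animals 401 (39, 1.27%) and 419 (30, 0.722%) and without DC animals 425 (32, 1.03%) and 430 (32, 0.831%). The share of all genes tested thus moved too, and the dependence on single animals was not particular to the members. With DESeq2 the count was 48 (1.89% of all genes tested) and with RNA integrity as a covariate 4 (0.0787%), where 86 members and 7.87% of all genes had an unadjusted p under 0.05.

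In 24 of the 26 members called, all 6 DC + Lixi values lay below all 6 NC values, and the median share of the fall over the 26 was 0.93. Rank 46 had 6.94 to 8.27 FPKM in DC + Lixi (median 7.79), 6.99 to 8.29 FPKM in DC (median 7.79) and 9.28 to 11.53 FPKM in NC (median 10.3). It was lower in DC + Lixi than in NC, at -0.38 ± 0.06 on the log2 scale (edgeR adjusted p = 0.0147). The treated and untreated diabetic values covered nearly the same range, and no animal of either reached NC.

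Rank 68 likewise had 46.5 to 53.04 FPKM in DC + Lixi (median 49.6), 47.9 to 53.7 FPKM in DC (median 50.3) and 56.2 to 73.1 FPKM in NC (median 62.8). Its log2 fold change against NC was -0.33 ± 0.06 (edgeR adjusted p = 0.0152). In this member animals 401, 418 and 419 had 53.04, 51.5 and 46.5 FPKM, a range that held the 51.9, 47.2 and 47.8 FPKM of 388, 403 and 428. Of the 20 members with the largest differences, the one called was that of rank 15, with 7.02 to 11.4 FPKM in DC + Lixi (median 9.17), 5.58 to 7.57 FPKM in DC (median 6.88) and 11.4 to 15.3 FPKM in NC (median 12.8). Against NC it had -0.48 ± 0.11 on the log2 scale (edgeR adjusted p = 0.0389), and it lost the call in 13 of the 26 alternative fits.

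Counted in FPKM over the 150 members, all 6 treated values lay below all 6 NC values in 44 members (29.3%), where 2.44% of the expressed genes did so. Over the 180 genes without overlap that ranked below the members it was 29.4%, so this share was not particular to the members. The reverse condition, with all 6 treated values above all 6 DC values, was met by 2 members (1.33%), where 0.295% of the expressed genes met it. In 18 members all treated values lay at or below the highest DC value. The share of the expressed genes that met this last condition was not counted, so the 18 members cannot be set against it.

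**Figure D4:**
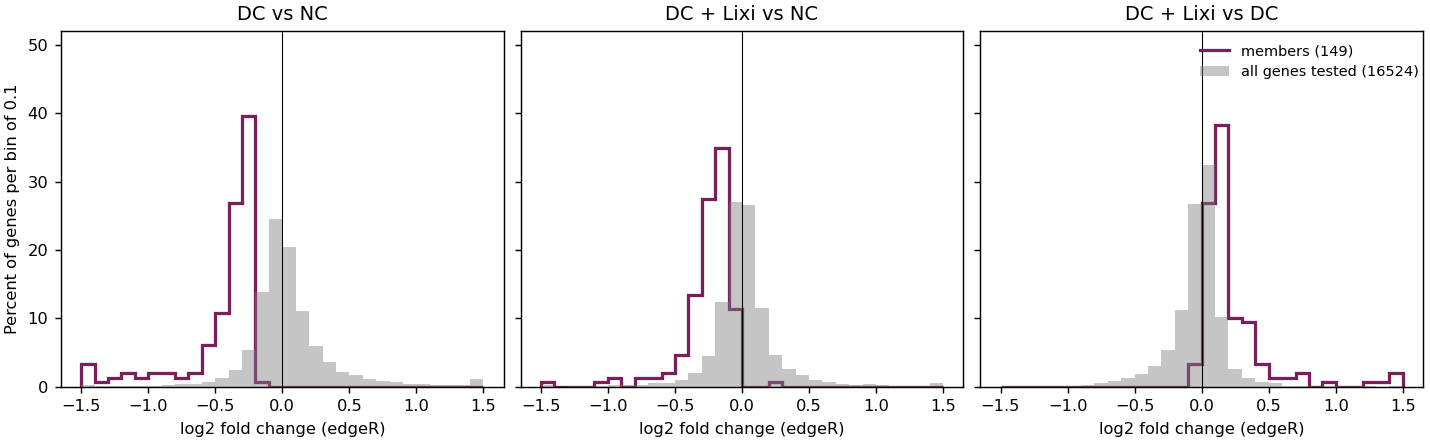
Distribution of log2 fold changes (x axis, bins of 0.1, the end bins also holding larger values) as percent of genes (y axis) for the 149 members tested (line) and all 16524 genes tested (grey) in DC vs NC, DC + Lixi vs NC and DC + Lixi vs DC. The DC vs NC panel shows the choice of members, and the members have medians of -0.33, -0.21 and 0.14 in the 3 panels, with those of all genes at or near 0.

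Between treated and untreated diabetic animals no member was called (edgeR, smallest adjusted p 0.189), and 0% of all genes tested were called higher in DC + Lixi than in DC. An unadjusted p under 0.05 with a higher level in DC + Lixi was found for 58 of the 149 members, where 5.81% of all genes tested had one. The fitted value was higher in DC + Lixi in 144 members and in 48.4% of all genes tested, with a median log2 fold change of 0.14 over the members. RNA integrity differed in this comparison as well. It was 8.4 to 9 in 5 of the 6 DC + Lixi libraries, below every DC library (9.2 to 9.5). In that of animal 403 it was 9.4. Of the treated animals, 403 had the highest integrity and 428 the lowest (8.4), and both had a median share within the DC range. With RNA integrity as a covariate the median log2 fold change of the members was 0.13. The DC libraries had been required to be low for the choice. DESeq2 called 7 members higher (0.307% of all genes tested) and limma none on either scale of FPKM.

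In 2 members all treated values lay above all DC values, and neither passed the threshold. Rank 8 had 0.88 to 1.00 FPKM in DC + Lixi (median 0.935), 0.284 to 0.749 FPKM in DC (median 0.608) and 1.07 to 1.88 FPKM in NC (median 1.33). All treated animals lay in the gap between the other groups, and no other member had this pattern. The log2 fold change against DC was 0.77 ± 0.20 (edgeR adjusted p = 0.221). Rank 44 had 21.9 to 28.6 FPKM in DC + Lixi (median 24.7), 18.7 to 21.4 FPKM in DC (median 19.4) and 21.9 to 32.2 FPKM in NC (median 26.6), and 0.39 ± 0.09 against DC on the log2 scale (edgeR adjusted p = 0.189). Of its treated values 5 lay within the NC range and that of animal 428 just below it.

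In 1 member the treated mean lay above that of NC. Rank 35 had 3.49 to 7.46 FPKM in DC + Lixi (median 5.08), 2.05 to 3.94 FPKM in DC (median 3.17) and 3.997 to 5.16 FPKM in NC (median 4.28). The highest treated value was that of animal 419. Against DC it had 0.77 ± 0.17 on the log2 scale (edgeR adjusted p = 0.189). Rank 7 had 2.70, 2.57, 2.54 and 2.52 FPKM in 388, 418, 419 and 401 and 1.58 and 1.54 FPKM in 403 and 428. DC animals had 0.63 to 1.77 FPKM (median 1.13) and NC animals 2.64 to 3.45 FPKM (median 2.75), so that 388 lay within the NC range, 3 animals between the ranges and 403 and 428 within the DC range. The log2 fold change against DC was 0.97 ± 0.21 (edgeR adjusted p = 0.189).

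The spread among treated animals was described by the SD within the group. The median SD of log2 CPM (depth-scaled counts with TMM factors, plus 0.1) in DC + Lixi was 0.139 over the 149 members tested and 0.114 over 13750 expressed genes. In DC it was 0.132 and 0.118, and in NC 0.103 and 0.11. The rule set DC and NC apart in the members, which can limit the spread of these groups but not that of DC + Lixi. The values over the members therefore cannot be compared between DC + Lixi and the other groups.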

How the data were processed

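Single-end reads were processed by the authors in Array Studio (alignment against rat gene models, quantification, scaling, DESeq2). Which aligner, genome build and annotation this involved is not given in the sources used here. They deposited estimated counts per gene, not normalized, and FPKM values. Their deposited sample sheet gives the count of alignments, the RNA integrity score, the RNA concentration and an absorbance ratio. Members were chosen on FPKM. The count table lacked a value in 46805 cells, of which 1504 were restored from FPKM through the constant ratio of count to FPKM in a gene (median error 0.00179% and 99th percentile 10.2% on 20000 known cells), and the rest were set to 0. Of the members 10 had 1 missing count each. Counts were rounded and analysed with edgeR 4.0.16 in R 4.3.3 (filterByExpr, TMM, quasi-likelihood test, 15 residual degrees of freedom, Benjamini-Hochberg). The edgeR steps were run for DC vs NC on simulated counts with falls of 1.5-fold and 2-fold. Smaller falls, as in most members, were not simulated. Alternatives were DESeq2 1.42.0, limma 3.58.1 on log2(FPKM + 0.1) and log2(FPKM + 1), RLE, no filter, only the groups compared, RNA integrity as a covariate, missing counts at 0, other forms of the rule, and leaving out each library.

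Members and tests were chosen with earlier results of these data known. Planned lists of retinal cell types and pathways need symbols, which matched 0 gene numbers, and are not used here. Genes to be named were to be those of largest difference, highest level, smallest p and extreme position, and members other than the 2 of largest difference are given by rank. Which of these are shown in full was decided with their values seen. All comparisons share libraries, so p-values of the 2 contrasts against NC are not independent.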

Additional observations from a re-analysis of the deposited data

Results flagged for a closer look

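In groups of 6 animals, 1 value stood apart from the others by Dixon's ratio in 6 of the 63 groups checked. All 6 flagged groups were DC or NC groups, whose values chose the members, so the count cannot be set against a chance rate. Animal 432 was the highest of NC in the member of rank 12, with 6.23 FPKM, and in that of rank 13, with 13.01 FPKM. In rank 13 animal 390 was also the highest of DC, with 3.43 FPKM. The member of rank 7 was highest in NC animal 433, with 3.45 FPKM. In DC, animal 396 had 0.391 FPKM in the member of rank 2, and animal 425 had 90.25 FPKM in that of rank 18. Each of these animals lay on its own group's side of the gap, as the choice of members requires.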

How the results depend on the processing

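No paired analysis was possible because the groups share no animal number. The median log2 fold change of the members kept its sign and moved by less than the spread between animals in each contrast under all 26 alternatives. In DC vs NC the choice of members set this sign in advance. In the other contrasts the NC libraries had been chosen to be high or the DC libraries to be low. The 143 members called in DC vs NC became 0 with RNA integrity as a covariate and were 125 to 145 without single animals. The 26 members lower in DC + Lixi vs NC became 48 with DESeq2, 42 with limma on log2(FPKM + 1), 10 without a filter and 4 with RNA integrity as a covariate, and were 2 to 39 without single animals. The share of all genes tested was 0.587% in the main fit, 1.89% with DESeq2, 0.0787% with the covariate and 0.0421% to 1.27% without single animals. For limma and the fit without a filter this share is not given, so these counts cannot be set against it. In DC + Lixi vs DC the count of 0 became 7 with DESeq2 and was 0 to 0 without single animals. The median share of the fall was 0.607 to 0.715 under other forms of the rule and 0.612 to 0.726 without single treated animals. The percent of members with all treated values below NC was 29.3, and 29.3 to 38 without single treated animals, and that with all above DC was 1.33, and 1.33 to 4.67. Rank 15 lost its call against NC in 13 alternatives (adjusted p up to 0.1 from edgeR), and ranks 7, 8, 35 and 44 passed against DC with DESeq2 (adjusted p = 0.00504, 0.0309, 0.0103 and 0.0235). With limma on log2(FPKM + 1), which shrinks changes of low genes, the log2 fold change was -1.11 for rank 1 and -0.55 for rank 2 against NC, and 0.59 for rank 7 and 0.33 for rank 8 against DC. The cause of the other changes was not tested. Rank 1 did not pass the filter with DC + Lixi and DC alone, so that fit gave no value. The rule on CPM kept 125 of the 150 members, a mean NC level of 5 FPKM 116, a pseudocount of 1 in the rule 145 and no level filter 139.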

Other observations

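The NC animals were not uniform in the members either. The median share of the fall was -0.0919, -0.139 and -0.131 in NC animals 431, 432 and 433 and 0.191, 0.116 and 0.103 in 437, 438 and 439. In 36 of the 150 members (24%) the highest 3 NC values were those of 431, 432 and 433, and this held for 16.2% of the 13910 expressed genes. This combination was the most frequent one among the expressed genes too, so the division was not particular to the members. The NC values also took part in the choice of members, and these counts are a description. The RNA concentration was 212.2, 234.1 and 238.0 ng/µl in 431, 432 and 433 and 395.4, 341.6 and 541.0 ng/µl in 437, 438 and 439. Its part in these differences was not tested. Among the members shown above, that of rank 44 had 30.2, 31.7 and 32.2 FPKM in 431, 432 and 433 and 22.6, 21.9 and 23.0 FPKM in 437, 438 and 439, and 5 of the 6 treated animals, all but 428, lay between these NC values.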
